A study of Drosophila melanogaster with 3 samples.

Results

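The nuclear genes for the subunits of the respiratory chain were examined in a map of crocodile (croc) binding in Drosophila melanogaster embryos. The members were the 87 protein-coding genes, of 13945 on the 6 chromosome arms, whose symbols in the Ensembl BDGP6.54 annotation name subunits of complexes I to V: ND- for complex I (40 genes), Sdh for complex II (7), UQCR- for complex III (9), COX for complex IV (16) and ATPsyn for complex V (15). The symbol rule takes in 24 genes named as paralogues of a subunit, with an L at the end of the symbol, such as COX7AL2 or ND-20L, and 63 others. It leaves out subunits under other symbols, such as blw and levy, and the subunits encoded by mitochondrial DNA. The genes were picked by name and not by any binding value.

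All samples were chromatin of whole embryos aged 0 to 18 h from transgenic flies carrying croc fused to enhanced green fluorescent protein (eGFP), precipitated with an anti-GFP antibody and sequenced (ChIP-seq), with fragments of 200 to 800 bp, per the labels. The 3 samples were biological replicates 1, 2 and 3 of this 1 group. Libraries from embryos without the fusion were not analysed here, and whole embryos mix many cell types, so a peak does not say in which cells it arose. The deposited values were peak lists: 3198, 2433 and 1822 peaks in replicates 1, 2 and 3 passed the threshold on the irreproducible discovery rate (IDR), a score of how well a peak's rank repeats between a pair of lists, and the series' conservative list held 3650. Read counts were not used, and library depth is unknown.

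The croc protein belongs to the forkhead family of transcription factors, whose winged-helix domain binds AT-rich sites, and it is known for its role in the development of the head. The respiratory chain sits in the inner mitochondrial membrane: complexes I and II pass electrons from NADH and succinate to ubiquinone, complex III passes them to cytochrome c, and complex IV to oxygen. Complexes I, III and IV pump protons, and complex V, the ATP synthase, uses the proton gradient to make ATP. Nearly all cells need these subunits, and most of their genes lie in the nucleus. Many of their paralogues in Drosophila are known to be expressed mainly in the testis.

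Peaks were found at few of these genes, and at a share close to that of other genes. A peak was assigned to a gene when the protein-coding transcription start site (TSS) closest to its summit, and no more than 10 kb off, was that gene's. Of the 86 members that could receive a peak, 11 did, 12.8% (exact 95% binomial interval 6.56 to 21.7, with genes as units), against 15.7% of all 13768 genes that could. The gene left out, ND-MNLL, shares both of its start sites with CG45089. Respiratory chain genes are short, with a median of 1100 bp against 2166 bp for all genes, and longer genes carried peaks more often: from 6.40% of other genes in the shortest of 10 length classes to 38.4% in the longest. Weighted to the lengths of the members, 10.2% of other genes had a peak. Weighted instead by how much sequence lay closest to a gene's start sites, 13.5% did, so the members stood slightly above the first value and slightly below the second.

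The replicate lists gave similar counts. In replicate 1, 10 members had a peak, 11.6% against 14.8% of all genes. In replicate 2 there were 9, 10.5% against 12.2%, and in replicate 3 also 9, 10.5% against 9.62%. The difference from all genes was -1.35 percentage points on average (SD 2.03, n = 3), below 0 in replicates 1 and 2 and above 0 in replicate 3, and did not exceed the spread between replicates (exact paired permutation test, 2-sided, p = 0.5, where 3 replicates cannot give less than 0.25). The direction depended on the genes set beside the members. Against other genes weighted to the members' lengths (9.37%, 7.70% and 6.01% in replicates 1, 2 and 3), the members were higher in 3 of 3 replicates, by 3.16 points on average (SD 1.15, n = 3; same exact test, p = 0.25, the smallest possible). Against other genes weighted by nearest sequence (12.5%, 10.5% and 8.34%), they were lower in replicates 1 and 2 and higher in replicate 3, by 0.42 points on average (SD 1.54, n = 3; same exact test, p = 1). Both weightings of the replicate lists were added after the data were seen. Across the conservative peaks shared with all 3 replicates, counting summits within 250 bp as shared, 8 members had a peak, 9.3% against 8.16% of all genes.

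The 11 members fell into a promoter set of 6 genes and a distant set of 5. The promoter set was ND-ASHI, ND-24, ND-51 and ND-SGDH of complex I, COX8 of complex IV and ATPsynE of complex V, all with a summit within 500 bp of a start site. They were 6.98% of the members, against 9.46% of all genes with an assigned peak at that distance. The distant set was COX7AL2 and COX7C of complex IV, ND-B14.7 and ND-20L of complex I and UQCR-6.4L of complex III, with summits 1011 to 8928 bp away, 5.81% of the members against 7.95% of all genes. None of the 7 genes of complex II, succinate dehydrogenase, had an assigned peak. Of the 15 peaks in all, 7 were at promoters (46.7%, or 6 of 14 separate peaks, 42.9%, without a minor second peak of ATPsynE described below), against 45.8% of all 3225 assigned conservative peaks, and the median signal was 204 against 184. The signal is the authors' own value for each peak, on a scale that is not stated, and it is used here only within a list.

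The DNA at the 4 strongest promoter peaks of this set is shown to let their make-up be seen. Each stretch is the longest part outside annotated exons within 150 bp of the summit, read on the strand of the respiratory chain gene, from the dm6 reference assembly (RefSeq GCF release of Release 6). Capitals mark any of the words searched, and a stretch with none holds no capitals. The ND-ASHI stretch lies at chrX:6679210-6679509, minus strand, in an intron of Fum1 and upstream of ND-ASHI.
ND-ASHI: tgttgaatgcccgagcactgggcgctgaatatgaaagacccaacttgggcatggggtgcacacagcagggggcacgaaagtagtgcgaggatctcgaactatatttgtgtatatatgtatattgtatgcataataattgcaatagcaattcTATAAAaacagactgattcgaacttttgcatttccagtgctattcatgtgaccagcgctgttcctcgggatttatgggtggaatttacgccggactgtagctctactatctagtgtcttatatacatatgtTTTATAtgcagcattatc
The ND-24 stretch lies at chrX:17632180-17632253, plus strand, in the first intron of ND-24.
ND-24: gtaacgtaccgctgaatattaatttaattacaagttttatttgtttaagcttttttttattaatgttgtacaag
The ND-51 stretch lies at chr2L:6062758-6062987, minus strand, between ND-51 and CG13994.
ND-51: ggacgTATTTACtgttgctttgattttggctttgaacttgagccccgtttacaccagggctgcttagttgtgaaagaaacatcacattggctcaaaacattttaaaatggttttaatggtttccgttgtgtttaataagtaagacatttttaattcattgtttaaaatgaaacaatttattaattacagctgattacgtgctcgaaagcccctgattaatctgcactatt
The ND-SGDH stretch lies at chr3L:12138585-12138777, minus strand, between ND-SGDH and RhoGAP68F.
ND-SGDH: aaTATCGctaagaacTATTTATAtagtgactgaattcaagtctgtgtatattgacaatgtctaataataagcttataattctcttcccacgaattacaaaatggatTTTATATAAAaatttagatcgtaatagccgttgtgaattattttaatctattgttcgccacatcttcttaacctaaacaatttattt
Their AT content was 58.3%, 77.0%, 66.1% and 73.6%. The capitals in ND-ASHI are TATA words (TATAAA or its reverse, TTTATA), those in ND-51 a forkhead word (TATTTAC), and those in ND-SGDH a BEAF-32 core on the reverse strand (TATCG), a forkhead word (TATTTAT) that overlaps a TATA word, and a second pair of overlapping TATA words. The forkhead words in capitals began 138 bp (ND-51) and 128 bp (ND-SGDH) from the summits. A further forkhead word of ND-SGDH, whose nearest base lay 39 bp from the summit, crosses the exon edge at the end of the stretch and is therefore not in capitals. The ND-24 summit itself lies in an exon, outside the stretch shown. A BEAF-32 core lay within 50 bp of that summit and is also not part of the stretch.

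ND-ASHI had the strongest promoter peak of the set. It encodes an accessory subunit of the membrane arm of complex I. Its peak (X 6679274 to 6679464) had a signal of 397 and rank 585 of the conservative list, and its summit lay 242 bp upstream of an ND-ASHI start site and 280 bp from a start site of Fum1, which encodes fumarase, an enzyme of the tricarboxylic acid (TCA) cycle. In the lists of the single replicates the signal was 118, 149 and 104 in replicates 1, 2 and 3, and all 3 passed the threshold. The summits of the replicates lay within 21 bp of the conservative summit. By the nearest-start rule, however, the replicate 1 summit was assigned to another gene. ND-ASHI therefore counts as a member with a peak in the lists of replicates 2 and 3 only.

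ND-24 and ND-51 encode subunits of the NADH-oxidising module of complex I. The ND-24 peak (X 17631972 to 17632355) had a signal of 266, with its summit in the 5' UTR exon 75 bp downstream of the start site and 117 bp from the start of corolla, which encodes a protein of the synaptonemal complex. Its replicate signals were 74.5, 94.8 and 106, all past the threshold. The ND-51 peak (2L 6062646 to 6063029) had a signal of 265, 81 bp upstream of the start site, and 97.4, 103 and 62.1 in the replicates. All of the ND-51 values passed the threshold too.

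ND-SGDH, another accessory subunit of complex I, had a peak (3L 12138436 to 12138819) with a signal of 238 whose summit lay 44 bp upstream of its start site. Its replicate signals were 87.9, 71.3 and 76.3, all past the threshold. ATPsynE encodes a small membrane subunit of the ATP synthase. Its peak (3R 14326772 to 14327155) had a signal of 204, with the summit in the 5' UTR exon 17 bp from the start site, and 60.2, 86.4 and 54.3 in the replicates, again all past the threshold. A further conservative peak of ATPsynE had its summit at 14327174 with a signal of 2.04, the last of the 3650 ranks, less than the median peak width (384 bp) from the stronger summit. It was matched by the same replicate summits, so it is 1 of the 15 peaks but not a separate site, and the main counts are also given over the 14 separate peaks.

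COX8 encodes a small nuclear subunit of cytochrome c oxidase. Its peak (3L 21539350 to 21539733, signal 105, rank 3113) was the weakest of the promoter set apart from that second ATPsynE peak. Its signals in the ranked lists, which hold peaks on both sides of the threshold, were 39.7, 41.8 and 31.0, and none of them passed. The COX8 peak was thus in the conservative list and in no thresholded replicate list.

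In the distant set, COX7AL2 had the strongest peak assigned to any member. It is a paralogue of a COX7A subunit gene, and its peaks lay in intergenic sequence upstream, 1442 bp (2L 2199260 to 2199400, signal 408, rank 560) and 3334 bp from its start site (2L 2201054 to 2201437, signal 340). The nearer peak had 156, 140 and 106 in the replicates and the farther one 112, 145 and 76.9, and all 6 passed the threshold. COX7C, a subunit of complex IV, had a peak (2R 10046238 to 10046621, signal 230) 1923 bp upstream, in an intron of oys, with 96.5, 63.1 and 75.2 in the replicates, all past the threshold. The start of oys lay at a like distance, 2189 bp, so the nearest-start rule separated the 2 genes by little.

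ND-B14.7, an accessory subunit of complex I, was the member with the most peaks, 3 intergenic ones downstream on 2R at 2601, 4789 and 8928 bp from its start site, with signals of 196, 167 and 111. The first passed in all 3 replicates, with 64.1, 69.4 and 47.7. The second passed in replicates 1 and 2 (58.7 and 77.7) and had 27.7 in the ranked list of replicate 3. The third passed in none, with 38.0, 46.2 and 22.8. From the nearest to the farthest, these peaks were thus shared with 3, 2 and 0 thresholded lists. The peak at 8928 bp was the member peak nearest to the 10 kb limit, and no conservative peak beyond that limit had a member as its nearest gene.

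The 2 remaining distant genes are both paralogues. UQCR-6.4L had a peak in an intron of Mipp1 (3L 16567569 to 16567952, signal 145), with 50.5, 49.5 and 48.7 in the ranked lists and no pass of the threshold. ND-20L had an intergenic peak 6608 bp from its start (3R 29522229 to 29522612, signal 144), which passed in replicate 1 (63.3) and had 40.6 and 35.4 in the ranked lists of replicates 2 and 3.

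**Figure D1:**
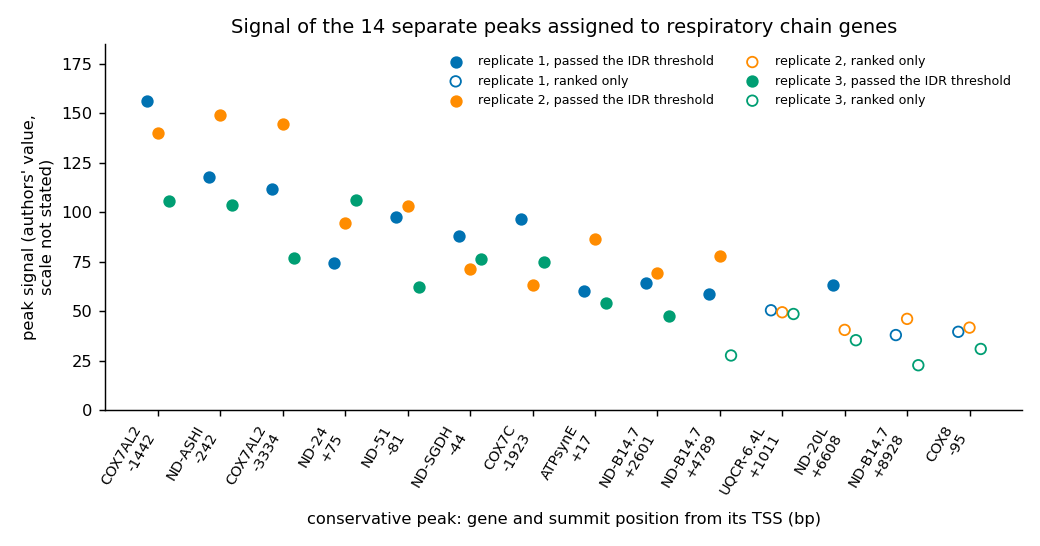
Signal of the 14 separate conservative peaks assigned to respiratory chain genes (authors' value, scale not stated) in each of the 3 replicates, ordered by conservative signal, with the summit's distance from the start site in bp under each gene. Filled points passed the IDR threshold in that replicate and open points were in the ranked list only; values run from 22.8 to 156, and COX8, UQCR-6.4L and the farthest ND-B14.7 peak have open points alone.

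Of the 15 member peaks, 10 had a shared summit in all 3 thresholded lists (66.7%), 1 in 2 lists, 1 in 1 and 3 in none. Over the 14 separate peaks, 9 were shared with all 3 (64.3%). Over all conservative peaks, 43.6% were shared with 3 lists and 10.4% with none. All 15 had a summit within 250 bp in the ranked list of every replicate, as did 98.5%, 98.2% and 93.7% of all conservative peaks in replicates 1, 2 and 3. The conservative list was made from these same libraries, so part of this sharing is built in. The thresholded replicate lists named 13 members in all, of which 7 were in every list and 4 were not among the 11. ND-42 had a peak in replicate 2 (67.3, 104 bp from its start site) and ATPsynCF6 one in replicate 1 (55.0, 91 bp), and the nearest conservative summits, 33 bp and 65 bp from those of the replicates, were assigned to the neighbouring gene. UQCR-11 had a peak 155 bp from its start in replicate 3 (49.1) and ATPsynCF6L one 5607 bp away in replicate 1 (51.2), and neither had a conservative peak close by.

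The nearest-start rule gives a peak to 1 gene only, which matters where start sites are close together. Counted by position alone, 12 of the 87 members had a conservative summit within 500 bp of a start site, 13.8% (exact 95% binomial interval 7.34 to 22.9), against 12.9% of all genes. These were the promoter set and 6 genes whose peak had been assigned to a neighbour: ND-MWFE and ND-42 of complex I, COX5A, COX5B and COX6B of complex IV, and ATPsynCF6 of complex V. With these, 17 of the 87 members had either an assigned peak or a summit at a start site, beside 2638 of all 13945 genes. The other 70 members had neither.

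The strongest of these further summits was at ND-MWFE, an accessory subunit of complex I, 161 bp upstream of its start site and 60 bp from that of TppII, a peptidase gene (2R 13158403 to 13158608, signal 486, rank 412). Its replicate signals of 199, 176 and 100 were the highest at any of the 12 promoters in replicates 1 and 2, and all passed the threshold. At COX5A, a subunit of cytochrome c oxidase, the summit lay 98 bp from its start site and 37 bp from that of glo, which encodes an RNA-binding protein (3R 11819265 to 11819648, signal 234), with 77.8, 73.9 and 75.3 in the replicates, all past the threshold. ND-42, of complex I, shared a summit with Cchl, the gene of the enzyme that attaches haem to cytochrome c (3R 22027380 to 22027763, signal 212). Its values were 63.8, 67.3 and 73.9, of which only that of replicate 1 had no passing summit within 250 bp.

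The other 3 were weaker. At ATPsynCF6, coupling factor 6 of the ATP synthase, the summit shared with Sec13, a gene of vesicle coats and nuclear pores, had a signal of 155 and 55.0, 48.5 and 53.0 in the replicates, passing in 1 and 3. At COX5B, next to the ciliary transport gene IFT52, it was 152 with 42.6, 69.7 and 32.7, passing in replicates 1 and 2. At COX6B, next to CG33932, it was 129 with 40.8, 70.2 and 24.6, passing in replicate 2. Across the 12 promoters, 7 summits were shared with all 3 replicates, 3 with 2, 1 with 1 and 1 with none.

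Every one of the 12 promoters had a head-to-head neighbour, meaning a protein-coding gene on the opposite strand with a start site upstream and within 500 bp. Among all 1795 genes with a conservative summit within 500 bp, 56.3% had such a neighbour. In 9 of the 12 the summit lay between the nearest start sites of the pair, and at ND-24, ATPsynE and COX5A it did not. All 12 summits were within 500 bp of a start site of the neighbour too, and 17 to 242 bp from that of the member. Whether croc-eGFP at these sites concerns the respiratory chain gene, its neighbour or both cannot be told apart in peak positions. Counted over assigned peaks and on either strand, 40.9% of the 1478 promoter peaks in the wider list had a second gene's start within 500 bp of the summit.

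**Figure D2:**
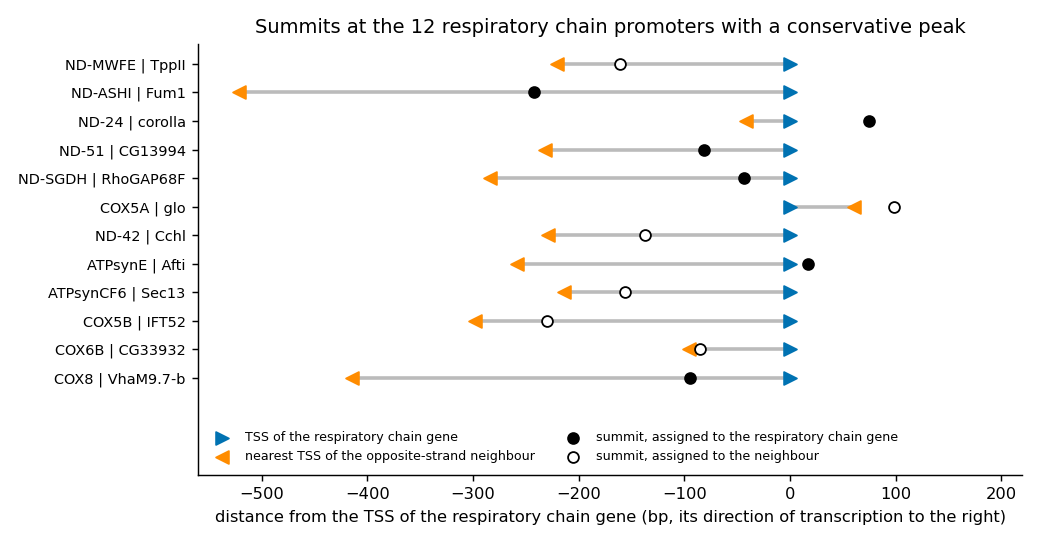
Conservative summits at the 12 respiratory chain promoters, as distance in bp from the nearest start site of the respiratory chain gene (blue, transcribed to the right), with the nearest start site of the opposite-strand neighbour (orange). Filled circles are summits assigned to the respiratory chain gene and open circles those assigned to the neighbour, 6 of each; 9 summits lie on the grey line between the 2 start sites.

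Head-to-head neighbours were common among these genes: 39 of the 87 members had one, 44.8%, against 27.4% of all genes. Of these 39, 12 had a conservative summit within 500 bp, 30.8% (exact 95% binomial interval 17.0 to 47.6), and of the other 48 none had, 0%. The same split held over the whole genome with a smaller gap, 26.5% of 3815 head-to-head genes against 7.74% of the 10130 others, so it is not particular to the respiratory chain. Counted by position, a summit can stand for both genes of a pair, so part of the higher head-to-head share is built in. With each peak assigned to 1 gene within 10 kb, a wider window, 6 of the 39 (15.4%) and 5 of the 48 (10.4%) had a peak. The 6 were the promoter set and the 5 the distant set, so within 500 bp the assigned counts were 6 of the 39 and 0 of the 48. The shares of all genes under this assignment, split by neighbour, are not given here. In replicate 1, 28.2% of the 39 head-to-head members had a summit at a start site against 24.5% of all such genes, and 0% of the others against 7.31%. The values in replicate 2 were 25.6% against 21.6%, and 0% against 6.19%. In replicate 3 they were 23.1% against 18.3%, and 2.08% against 4.94%, where UQCR-11 was the 1 member without a head-to-head neighbour that had a summit. The head-to-head members averaged 25.6% (SD 2.55, n = 3) and the others 0.693% (SD 1.20, n = 3), with no overlap between the lists. Over all genes the averages were 21.5% (SD 3.10, n = 3) and 6.15% (SD 1.19, n = 3), also with no overlap. The 5 genes of the distant set were all without a head-to-head neighbour, which 27.4% of all genes and 44.8% of the members had. The share among all genes with an assigned peak beyond 500 bp is not given here, so these 5 are not a trait of the respiratory chain.

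**Figure D3:**
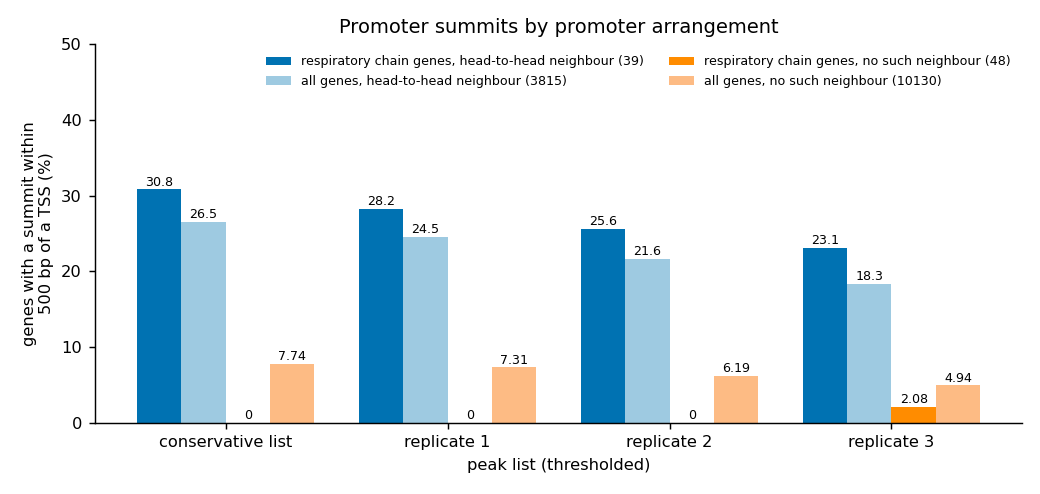
Percent of genes with a summit within 500 bp of a start site in the conservative list and in the thresholded list of each replicate. Blue bars are genes with a head-to-head neighbour and orange bars genes without, dark for respiratory chain genes and pale for all protein-coding genes, with group sizes in the legend; in each list the dark blue bar is the highest (23.1% to 30.8%) and the dark orange bar the lowest (0% to 2.08%).

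Most of these layouts belonged to genes that are not paralogues. Of the 63 genes not named as paralogues, 36 (57.1%) had a head-to-head neighbour and 12 (19.0%) a conservative summit within 500 bp. Of the 24 paralogues, 3 (12.5%) had such a neighbour and none a summit at a start site. Assigned peaks were found in similar shares, 8 of 63 (12.7%) and 3 of 24 (12.5%), and those of the paralogues all lay over 1 kb away. Within the 63, the 12 summits were among the 36 with a head-to-head neighbour and none among the 27 without, so the split by neighbour was present among these genes alone. The part that paralogy itself has beyond the layout was not tested.

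By complex, summits at start sites were found at 6 of 40 genes in complex I (15.0%), 0 of 7 in complex II, 0 of 9 in complex III, 4 of 16 in complex IV (25.0%) and 2 of 15 in complex V (13.3%), beside 12.9% of all genes and 26.5% of all head-to-head genes. Without paralogues the count for complex IV was 4 of 8 (COX5A, COX5B, COX6B and COX8), and 6 of those 8 genes had a head-to-head neighbour. In complex II, 1 of the 7 genes had such a neighbour (SdhC), and its nearest summit was 1951 bp from a start site. The groups are small and no test was made between complexes. Of the 76 members with no assigned peak, COX6B, COX5A and ND-42 were closest to a conservative summit assigned elsewhere, at 85, 98 and 137 bp. Beyond the 6 described above with such a summit within 500 bp, the next were SdhA, COX5BL and SdhC, at 868, 1861 and 1951 bp.

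The ranked lists reach below the threshold and hold more of these promoters. A ranked summit within 500 bp of a start site was listed for 35 members in replicate 1 (40.2%, against 39.2% of all genes), 29 in replicate 2 (33.3% against 32.8%) and 40 in replicate 3 (46.0% against 36.6%). Head-to-head members had one in 59%, 46.2% and 56.4% of cases, against 57.7%, 51.5% and 55.3% of all such genes. Members without such a neighbour had one in 25%, 22.9% and 37.5%, against 32.2%, 25.7% and 29.6%. The near absence of summits at the latter above the threshold was thus not seen in the single ranked lists. In all 3 ranked lists at once there were 21 members (24.1%, against 20.7% of all genes), none of them a paralogue, and in none of the lists 38. The 21 were 17 of the 39 head-to-head members (43.6%, against 39% of all such genes) and 4 of the 48 others (8.33%, against 13.9%). Besides the 12 described above, the 21 included ATPsynbeta, the catalytic subunit of the ATP synthase (46.0, 21.3 and 25.2), ND-23 and ND-49 of the core of complex I (66.5, 37.0 and 30.9, and 33.8, 32.5 and 27.4), and SdhC, a membrane subunit of complex II (14.2, 20.5 and 19.8). These members were picked as examples after their values were seen. In replicate 1 the summits at ND-23 and ATPsynbeta passed the threshold, and these genes are 2 of the 11 head-to-head members counted in that list. The others of these values did not pass.

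Member summits were rich in A and T, as were those of the whole list. In the 101 bp around each summit the median AT content was 70.3%, from 62.4% to 77.2%, against 69.3% over all conservative summits. At 500 bp to the left it was 51.5% against 55.4%, and 14 of the 15 member summits, or 13 of the 14 separate ones, were richer than that flank. The second ND-B14.7 peak was the exception (62.4% against 65.3%). A forkhead word (TATTTAC or TATTTAT or TGTTTAC or TGTTTAT, on either strand) was within 50 bp of 4 of the 15 summits, 26.7% (28.6% of the 14 separate ones), against 23.6% of all conservative summits. At the positions 500 bp to the left, 3 of the 15 members' windows held one (20.0%), a difference of 1 peak, against 14.1% of all such windows. Those 4 were at ND-SGDH, COX7C, UQCR-6.4L and the farthest peak of ND-B14.7, so 1 of the promoter set had a word close to its summit. The thresholded replicate lists gave 21.6% (SD 7.30, n = 3).

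Promoters were also searched for words of other factors, in the 301 bp from 250 upstream to 50 downstream of the first start site, on both strands. A forkhead word was in 47 of the 87 member promoters (54.0%), against 46.3% of all promoters. It was in 5 of the 12 with a summit and 56.0% of the 75 members without, against 50.1% of all genes with a summit within 500 bp. The DRE (TATCGATA), bound by the replication-related factor Dref, was in 9 (10.3% against 9.37%). It was in 0 of the 12 with a summit, against 12.7% of all genes with one, and in 12% of the 75 members without. The BEAF-32 core (CGATA), which every DRE also contains, was in 46 (52.9% against 47.5%). It was in 9 of the 12 with a summit, against 51.1% of all genes with one, and in 49.3% of the 75 members without. The core of motif 1 (GGTCACAC), bound by M1BP, was in 16 members, 18.4% against 7.71% of all promoters, and in 15 of the 63 genes that are not paralogues (23.8%) against 1 of 24 paralogues (4.17%). Of the 12 promoters with a summit, 3 held it (COX5A, COX5B and ND-MWFE), against 9.58% of all genes with a summit and 17.3% of the 75 members without. No member summit had it within 50 bp. The TATA word (TATAAA) was in 55.2% against 45.9%, the GAGA word (GAGAG) in 23.0% against 29.8% and the E-box (CACGTG) in 4.6% against 4.24%. The ERR element (TCAAGGTCA) was in no member promoter and 0.122% of all, and the NRF-1 core (GCGCATGC) in none and 1.05%. ERR and NRF-1 are regulators of respiratory chain genes in mammals, and no match says only that these letters are not in this window. A match is a run of letters and not a measured site.

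**Figure D4:**
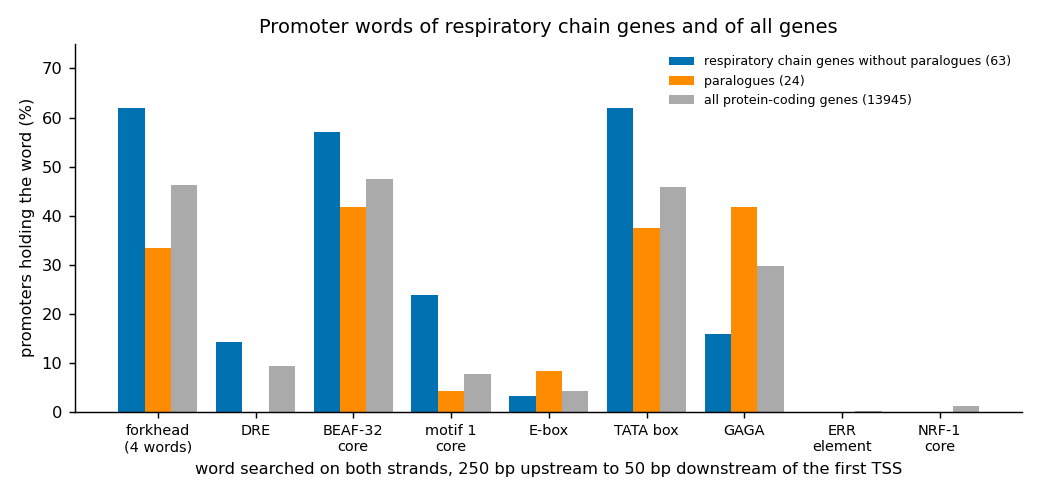
Percent of promoters, from 250 bp upstream to 50 bp downstream of the first start site, that hold each word on either strand. Blue bars are the 63 respiratory chain genes that are not paralogues, orange bars the 24 paralogues and grey bars all 13945 genes; the motif 1 core is in 23.8%, 4.17% and 7.71%.

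Genes of the same pathway under other symbols were looked up from fixed lists. Of 9 further respiratory chain genes, 3 had an assigned peak: Cyt-c-p, which encodes cytochrome c (477, 931 bp away), blw, the alpha subunit of the ATP synthase (296, 118 bp), and RFeSP, the Rieske protein of complex III (184, 1754 bp). The first 2 were shared with all 3 replicates and the last with 2. Cyt-c-d and levy had a summit within 500 bp (390 and 128 bp) assigned to a neighbour. Of 11 TCA cycle genes, 5 had one: Idh3g (581, 95 bp) and Idh3b (141, 73 bp), subunits of isocitrate dehydrogenase, kdn, citrate synthase (308, 1486 bp), mAcon1, aconitase (240, 62 bp), and Ogdh, of the oxoglutarate dehydrogenase complex (136, 518 bp). Those of Idh3g, kdn and mAcon1 were shared with all 3 replicates and those of Idh3b and Ogdh with 1. Fum1 had a summit at 280 bp, the one assigned to ND-ASHI. Of 5 assembly factor genes none had an assigned peak, though CIA30 and Ttc19 had a summit within 500 bp that was assigned to a neighbour. Of 13 genes of mitochondrial gene expression and its regulators, 1 had one, Dref (119, 23 bp), and ERR and M1BP had a summit within 500 bp assigned to a neighbour. These counts stand beside 15.7% of all genes with an assigned peak, and the lists are too short for a comparison.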

How the data were processed

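Peak lists of 3 replicates and of the whole series were used as the authors deposited them. Per the labels and file names, all are on the dm6 build and are ranked or thresholded by IDR. Names of the aligner and peak caller were not given in the sources used here. Signal is the authors' value for each peak, and their deposited score is IDR on a scale of its own (lowest value in the thresholded lists 830). Peaks on the 6 arms were kept, and the RefSeq Release 6 sequence and the Ensembl release 115 annotation (BDGP6.54) of the same build were used.

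Summits were assigned to the nearest protein-coding TSS within 10 kb, with ties going to the first symbol in order. Promoter means within 500 bp, and summits within 250 bp are shared. Genes were compared by length in 10 classes of equal number, by direct weighting and with no random draws. Replicate differences were tested by an exact paired permutation test, and no test was made over genes or peaks. Intervals cover counting only. Replicates come from separate biosamples, per the labels. Scripts ran in Python 3.11.15 with pandas 2.3.3, numpy 2.4.6 and scipy 1.17.1, and were tested on simulated data. Every member with an assigned conservative peak was named, with values for every list. The members, lists and tests were chosen with earlier results of these data known. Alternatives were other distances, peak subsets, lists and windows, and leaving out each replicate; the other thresholded lists of the series, the weighted comparisons in the replicate lists and the counts over separate peaks were added after seeing the data.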

Additional observations from a re-analysis of the deposited data

How the results depend on the processing

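The count of 11 members with an assigned peak fell to 6 under a 1 kb limit, which by construction removes the distant set. That was 6.98% of members against 10.9% of all genes. The count was 10 with a 5 kb limit (11.6% against 14.5%) and 11 with none (12.8% against 16.7%). In the strongest 50% of the peaks the count was 8 (9.3% against 9.6%). Without replicate 1, 2 or 3, where peaks had to be shared with both others, the count was 8 each time. That was 9.3% of members, against 8.35%, 8.81% and 11% of all genes. This setting only filters the conservative list, which was made from these same libraries, so it could not add a member. The replicate lists gave 9 or 10, with the shares given above, and 8 in each were among the 11. The other thresholded lists of the series, added after seeing the data, gave 9, 12 and 11. These were 10.5%, 14% and 12.8% of members, against 13.3%, 14.4% and 14.2% of all genes. Giving each peak to every gene with a start site within 1 kb yielded 13, 15.1% of members against 15% of all genes. The difference from all genes in the replicate lists was -0.441 to -2.44 percentage points without each replicate in turn, -1.8 with a 1 kb limit and -7.5 in the ranked lists (exact paired permutation p = 0.25, the smallest that 3 replicates allow). It turned positive when other genes were weighted, in settings added after seeing the data: 3.16 points by gene length (exact p = 0.25) and 0.415 by nearest sequence (exact p = 1). Weighting by nearest sequence in place of gene length moved the share of other genes from 10.2% to 13.5%, across the members' 12.8%. The strict core TGTTTAC was at 0% of member summits, against 26.7% for the 4 words. The share of all conservative summits with the strict core is not given here, so this 0% cannot be compared with the whole list. The share at promoters ran from 42.9% to 55.6%, and the number shared with all 3 replicates was 10, 9 with summits within 100 bp or over separate peaks, and 15 in the ranked lists. No paired analysis was possible because the study has no second group; the test above pairs members and all genes within each list. Depth is unknown, and with 15 peaks a share moves by several points with each peak.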
